A study of Mus musculus with 10 samples.

Results

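The control 8-cell mouse embryos of this series were described on their own, as a catalogue of which genes stand high, low or at 0 in the control embryos at this stage. The 2 control libraries among the 10 libraries of the series were chosen by their title and treatment label, and no other group enters any value below. Per the labels, both are embryos of BDF1 genotype at the 8-cell stage with the treatment "Control". The labels say neither which control handling was used, nor how many embryos went into a library, nor whether the 2 libraries came from separate pools. The remaining 8 libraries, 4 groups of 2 from the same stage and genotype, carried a knockdown of Klf5 or Tfap2c or a knockout of Tfap2c motifs. Per the labels' protocols, the zona and the polar bodies were taken off the embryos before RNA was extracted. Reverse transcription of the total RNA used random primers. Ribosomal cDNA was depleted after amplification.

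At the 8-cell stage the mouse embryo has replaced most of the RNA it inherited from the oocyte with transcripts of its own genome. Its blastomeres then flatten against each other, a step named compaction, and also gain an outer and an inner face. Outer cells later form the trophectoderm, which makes the placenta. Inner cells form the inner cell mass, which divides into the epiblast and the primitive endoderm. Transcription factors of all of these lineages can be present in the same cells at this stage, before they separate.

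Each library gives 1 value for each of 24421 genes on a log2(value + 1) scale. The value behind the logarithm is called a linear unit here, and where 2 values are given for a gene the first is replicate 1 and the second replicate 2. The linear values sum to 389715 and 390386 units. The depth of sequencing is unknown, and the kind of abundance is not named in the sources used here. The order of 2 genes is therefore the order of the deposited values, which may or may not be per length. Among the 8721 protein-coding genes at 1 linear unit or more in both libraries, Spearman's rho between level and exonic length was 0.0826 across genes, which are not independent replicates. The median level was 7.81 linear units in the 2181 shortest of these genes (216 to 2905 bases) and 12.2 in the 2180 longest (7152 to 123179 bases).

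A gene is called detected below where it reached 1 linear unit in both libraries, and abundant where it reached 100 in both. Of the 24421 genes, 9486 were detected (38.8%), 755 were abundant (3.09%) and 4905 were listed at 0 in both libraries (20.1%). These shares of all genes are the base for each list count below. The median detected gene stood at 3.33 log2 units and the median of all genes at 0.44. The summed signal was concentrated in few genes. The 100 highest genes held 29.0% of it in replicate 1 and 28.5% in replicate 2, and 400 genes held 50% of the summed mean. An exact 0 can be a failed estimate rather than a missing transcript. Gapdh, a glycolytic enzyme that nearly every cell uses, was listed at 0 in replicate 1 and at 0.203 linear units in replicate 2. For that reason a gene at 0 is only said to be listed at 0.

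**Figure D1:**
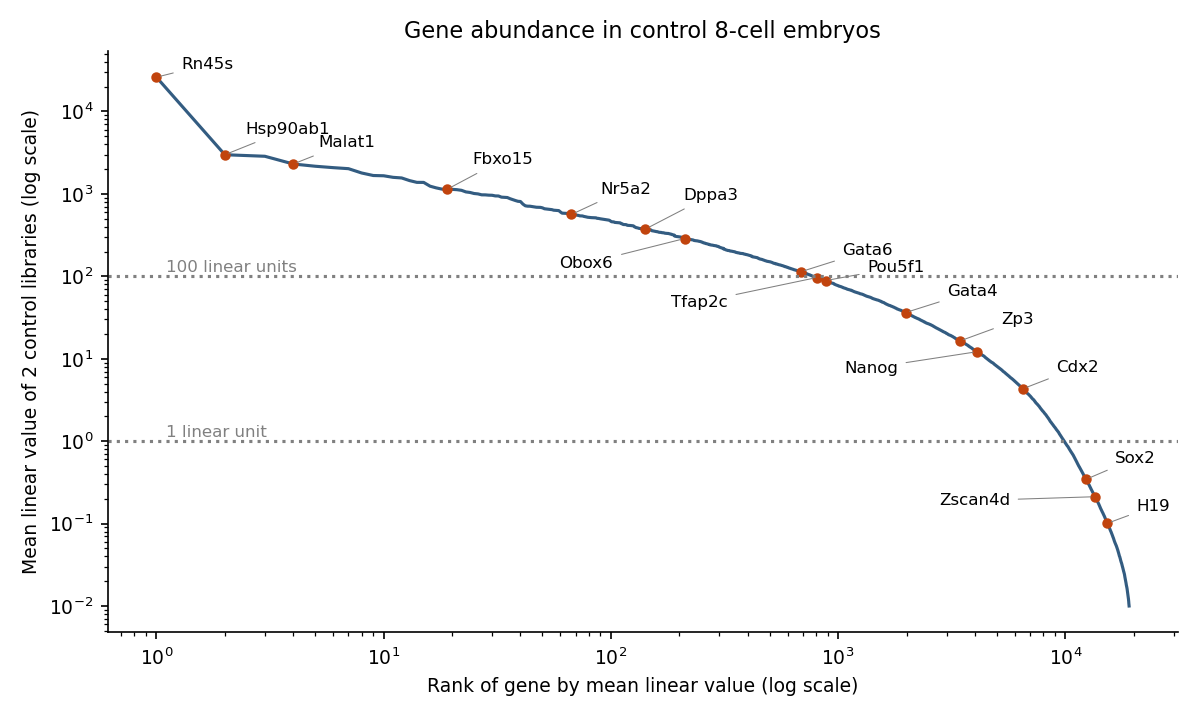
Mean linear value of the 2 control libraries (vertical, log scale) against the rank of the gene (horizontal, log scale), with named genes as points and the cuts at 1 and 100 linear units dotted. Rn45s stands alone at the top, Fbxo15 and Nr5a2 lie far above Pou5f1, and Sox2 and H19 lie under 1 linear unit.

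The 2 libraries gave nearly the same profile. Across detected genes Pearson's r of the log2 values was 0.993 and Spearman's rho 0.988. Of the 9486 detected genes, 9279 lay within 1.5-fold between the libraries on the log2(value + 1) scale (97.8%), and 31 differed by more than 2-fold. The 100 highest genes of each library shared 97 genes. Among genes with a mean of at least 1 linear unit the spread narrowed with level: the root mean square SD was 0.234 log2 units for genes between 1 and 5 linear units, 0.147 between 10 and 50, and 0.0758 for the 89 genes at 500 or more. It was 0.156 for the 9625 genes with a mean under 1 linear unit that were not at 0 in both libraries, smaller than for genes between 1 and 10. The added 1 compresses differences at these low values, so the smaller figure cannot be read as better agreement. Of all genes, 3231 were at 0 in exactly 1 library.

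The genes that disagreed most included a pseudogene, small RNAs and genes that overlap or resemble another. Rpl34-ps1, a pseudogene of a ribosomal protein gene, was listed at 46.4 linear units in replicate 1 and at 0 in replicate 2, while its parent Rpl34 stood at 517 and 515. No other gene at 0 in one library reached 10 linear units in the other. Snurf and Snrpn lie on the same stretch of chromosome 7, Snurf (59995449 to 60005049) inside the model of Snrpn (59982495 to 60140219). Snurf was the higher in replicate 2 (6.09 and 19.01) and Snrpn in replicate 1 (28.8 and 19.5). Of the ribosomal protein genes, Rpl15 read 112.5 and 253 linear units and Rps12 read 37.7 and 77.1. Mir682 (25.5 and 5.80), Gm21992 (27.9 and 10.9), Gm3286 (25.004 and 9.82) and Erdr1 (20.2 and 8.94) were higher in replicate 1, and Mirc35hg (5.91 and 14.9) and Snord49b (10.1 and 17.5) in replicate 2. Single values of these genes cannot be read beyond such differences.

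**Figure D2:**
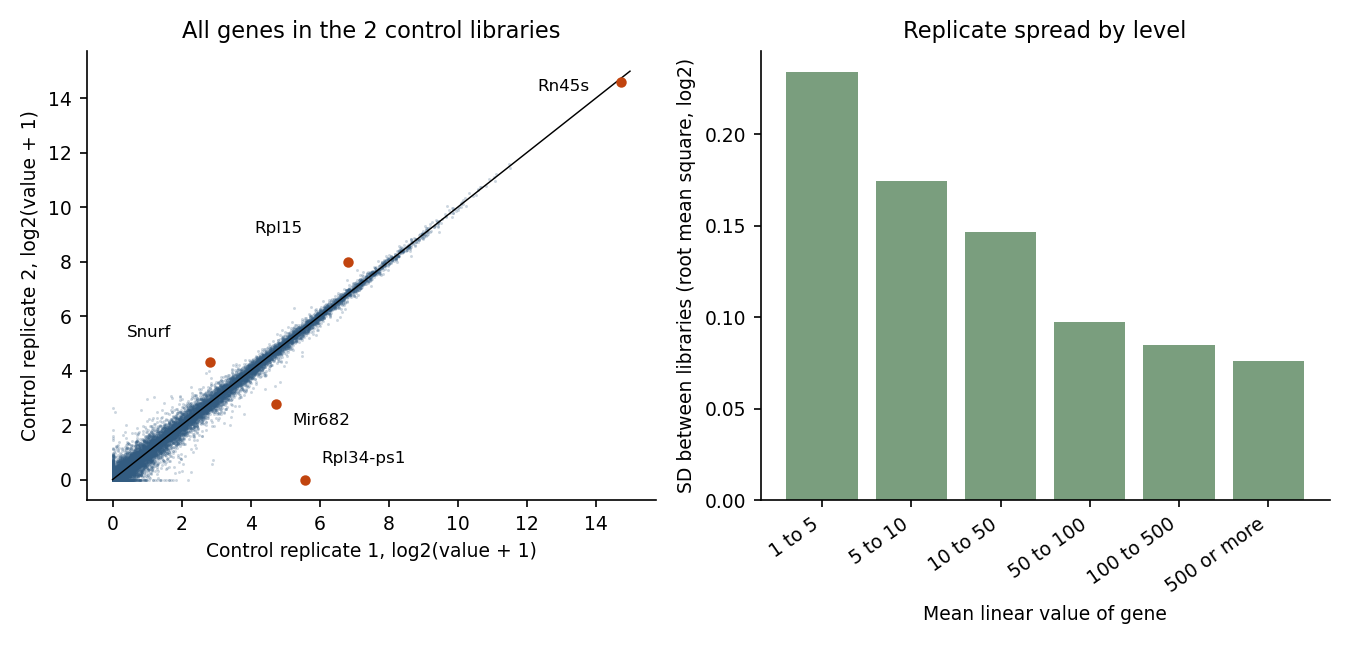
Left, log2(value + 1) of every gene in control replicate 1 (horizontal) and replicate 2 (vertical) with the line of equality; right, the root mean square SD between the libraries in log2 units by mean linear value of the gene. The spread falls from 0.234 for genes of 1 to 5 linear units to 0.0758 for those at 500 or more, and Rpl34-ps1, Mir682, Snurf and Rpl15 stand off the line.

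The most abundant transcript was Rn45s, the precursor of the 18S, 5.8S and 28S ribosomal RNAs, at 27399 and 24746 linear units. It held 7.03% and 6.34% of the summed signal after the depletion step, and no other gene reached 1%. The next was Hsp90ab1, a constitutive form of the HSP90 chaperone, at 2883 and 3096. The chaperones Hspa8, the constitutive HSP70, at 1820 and 1769, and Hsp90aa1, at 1634 and 1711, were also among the 10 highest genes. The nucleolar proteins Npm1 (2950 and 2775) and Ncl (1533 and 1645), which act in ribosome assembly, were also among the 25 highest genes. So was Odc1, the rate-limiting enzyme of polyamine synthesis, at 2135 and 2198. Pank3, an enzyme of coenzyme A synthesis, stood at 2161 and 2005.

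The rest of the 25 highest genes covered several roles. Malat1, a nuclear long noncoding RNA, stood at 2206 and 2408 linear units. Tpr, a nucleoporin, stood at 1540 and 1584, and Rb1cc1, a scaffold of autophagy initiation, at 1491 and 1411. Baz2a, a chromatin protein that silences ribosomal RNA genes, stood at 1289 and 1469, and Nin, a centrosomal protein, at 1183 and 1300. Rlim, a ubiquitin ligase needed for imprinted X inactivation in the early mouse embryo, stood at 1151 and 1120. Ybx1, a binder of mRNA, stood at 1097 and 1155, and Rnps1, a splicing regulator, at 1023 and 1000.35. Nudt4, Prrc2c, Dnajb6, Mier3, Rpl5 and Rps24 lay between 1027 and 1386 linear units in both libraries. The 2 libraries lay within 1.5-fold of each other for all of these genes.

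Genes of protein synthesis were among the highest, and ribosomal proteins had the highest median of the 35 lists with measured members. All 86 genes of the cytosolic ribosomal proteins were detected and 72 were abundant, with a list median of 8.14 log2 units against 0.44 for all genes. They held 8.02% and 7.87% of the summed signal, and 21 of them were among the 100 highest genes. Rplp0, a protein of the ribosomal stalk, led with 1945 and 2103 linear units, followed by Rpl13a (1606 and 1714). Many of these genes have processed pseudogenes of near-identical sequence, so single values are uncertain where reads could be split. Of 64 translation initiation and elongation factors, 62 were detected (96.9%, against 38.8% of all genes) and 27 abundant (42.2%, against 3.09%). They were led by Eef1a1 (815 and 803), which brings aminoacyl-tRNA to the ribosome, Eef2 (639 and 624) and the initiation factor subunits Eif3a (558 and 605) and Eif3c (565 and 600). Eef1a2, the paralog of Eef1a1 known from muscle and neurons, was at 0.0968 and 0.109.

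RNA and protein turnover were covered as broadly. Of 54 splicing factors, 53 were detected (98.1%, against 38.8% of all genes) and 23 abundant (42.6%, against 3.09%). Their median was 6.24 log2 units. Hnrnpu stood at 511 and 521 linear units and Hnrnpa1 at 440 and 451, both binders of nascent RNA. The splicing factor U2af2, which recognises the polypyrimidine tract, stood at 399 and 451. Srsf12 was listed at 0 in both libraries. Of 39 proteasome subunits, 36 were detected (92.3%, against 38.8% of all genes) and 10 abundant (25.6%, against 3.09%). The ubiquitin receptor Psmd4 (347 and 361) was the highest of them. Of the specialised catalytic and germ cell subunits, Psmb8 read 0.0404 and 0, Psmb9 read 0 and 0.128, and Psma8 read 0.416 and 0.512. The immunoproteasome subunit Psmb10 was low as well, at 4.44 and 5.28.

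Genes in common use as reference genes did not form a uniform group. Of 40 such genes 36 were detected (90%, against 38.8% of all genes) and 15 abundant (37.5%, against 3.09%), with a median of 5.94 log2 units. The levels of Actb, cytoplasmic actin, were 312 and 321 linear units. Hprt, a purine salvage enzyme, stood at 224 and 215 and Tfrc, the transferrin receptor, at 516 and 476. Tbp, the TATA-binding protein, stood at 29.5 and 31.1. At the low end were B2m, the light chain of MHC class I, at 3.25 and 3.13, Pgk1 at 3.89 and 4.35, and Gusb at 0.241 and 0.202. Vps29, a retromer subunit, was at 0.502 and 0.459, and Gapdh at 0 and 0.203. These reference genes thus ranged within each library from the level of Rplp0 (1945 and 2103) down to the levels of Gusb and Gapdh. The Gapdh values may be a failed estimate, as said above.

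**Figure D3:**
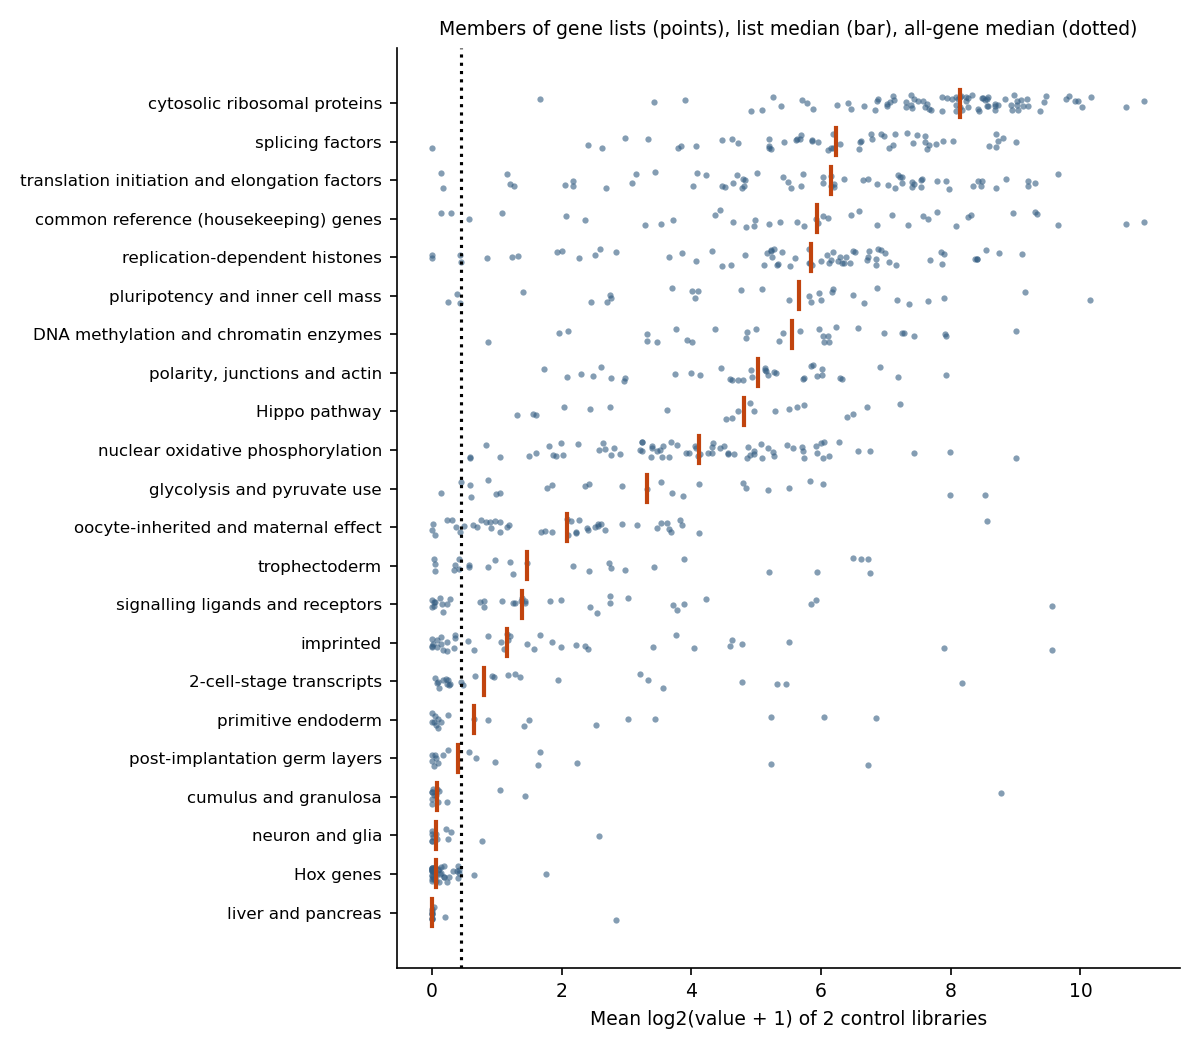
Mean log2(value + 1) of the 2 control libraries (horizontal) for each member (points) of 22 gene lists, with the median of the list as a bar and the all-gene median of 0.44 log2 units dotted. Ribosomal proteins (median 8.14) and splicing factors (6.24) lie far to the right, while the Hox, neuron and glia, and liver and pancreas lists lie near 0.

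Most genes of the pluripotency and inner cell mass list were detected. Of 30 genes 27 were detected (90%, against 38.8% of all genes) and 7 abundant (23.3%, against 3.09%), with a median of 5.65 log2 units. All 27 lay within 1.5-fold between the libraries, as did 97.8% of all detected genes. Fbxo15, a known downstream target of the pluripotency factors, stood at 1206 and 1066 linear units and ranked 19th of all genes. The nuclear receptor Nr5a2 stood at 560 and 566, and the zinc finger factor Sall4 at 235 and 237. Tbx3, a T-box factor, was at 203 and 195, and Dppa2, an activator of early embryonic genes, at 167 and 160. The Krüppel-like factors on the list were all detected: Klf5 at 146 and 139, Klf17 at 92.0 and 109.7, Klf2 at 69.4 and 74.1, and Klf4 at 72.1 and 70.5.

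Of the 3 factors most used to define the pluripotent state, Pou5f1 and Nanog were detected and Sox2 was not. Pou5f1 (chromosome 17, 35506018 to 35510772), the gene of OCT4, stood at 88.5 and 89.3 linear units. Nanog (chromosome 6, 122707489 to 122714633) stood at 14.5 and 9.91. Sox2 (chromosome 3, 34650405 to 34652461) was under the cut, at 0.257 and 0.433. Esrrb (45.2 and 43.6) and Tfcp2l1 (17.5 and 13.1), factors of naive pluripotency, lay between Pou5f1 and Nanog in both libraries. Fgf4, the ligand that drives primitive endoderm formation, was at 5.04 and 6.39. Prdm14 (0.225 and 0.396) and Otx2 (0.243 and 0.131), the latter a factor of the later epiblast, were not detected. The RNA-binding proteins Lin28a (60.9 and 64.6) and Lin28b (4.39 and 4.51) were both detected.

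Of 27 genes of the trophectoderm list, 15 were detected (55.6%, against 38.8% of all genes) and 2 abundant, with a median of 1.47 log2 units. Aqp3, a water and glycerol channel, stood at 111.8 and 103 linear units, and Hand1, a basic helix-loop-helix factor of trophoblast, at 105 and 103. Tfap2c (chromosome 2, 172549593 to 172558622), an AP-2 factor, stood at 96.5 and 96.9. Tead4, the DNA-binding partner of YAP in the trophectoderm, stood at 91.5 and 87.1. The tight junction protein Cldn4 was at 59.7 and 60.6 and the factor Sox21 at 33.4 and 37.7. The keratins Krt8 (8.12 and 5.77) and Krt18 (6.40 and 5.13) were detected. Cdx2 (chromosome 5, 147300805 to 147307270), the factor that defines the lineage, was at 4.10 and 4.57, and Gata3 at 3.57 and 3.46. Eomes stood at the cut, at 1.116 and 0.830. Elf5 and Gata2, factors of trophoblast stem cells and giant cells, were each at 0.06 in replicate 1 and listed at 0 in replicate 2. Id2 gave 0.32 and 2.98, so its level is not fixed by these libraries.

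The primitive endoderm list lay near all genes in its counts. Of 19 genes, 8 were detected (42.1%, against 38.8% of all genes) and 1 was abundant, with a median of 0.65 log2 units against 0.44. The abundant one was Gata6, the factor that sets the lineage against Nanog, at 115.5 and 112.04 linear units. Gata4 stood at 33.5 and 39.3, the laminin chain Lamc1 at 69.0 and 60.8, and the receptor Pdgfra at 6.76 and 7.5002. Sox17 (0.0183 and 0.0525), Sox7 (0 and 0.0928) and Foxa2 (0.0369 and 0), which act later in the lineage, were not detected. Ttr and Afp, secreted products of visceral endoderm, were listed at 0 in both libraries. The libraries are of whole embryos, so a transcript low in every blastomere and one high in a few cannot be told apart.

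**Figure D4:**
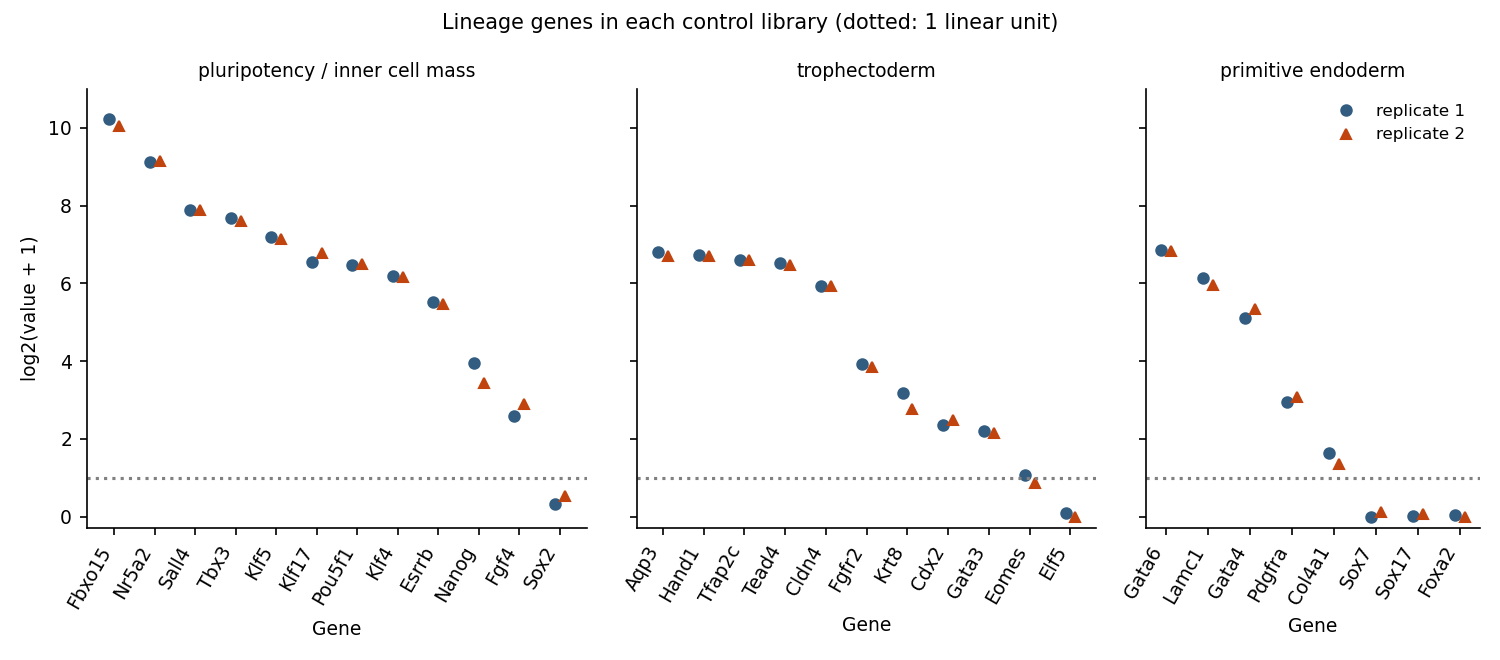
Level of lineage genes in log2(value + 1) units (vertical) in control replicate 1 (circles) and replicate 2 (triangles), by list, with 1 linear unit dotted. Within each list some members lie above 6 log2 units while others, such as Sox2, Elf5 and Sox17, lie under the dotted line in both libraries.

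Of 46 genes of the oocyte and maternal effect list, 29 were detected (63.0%, against 38.8% of all genes) and 1 was abundant, with a median of 2.09 log2 units against 0.44. The higher share depended on the cut. At 5 linear units 11 of the 46 passed in both libraries, a share near that of all genes (5950 of 24421). The abundant gene of the list was Dppa3 (379 and 371 linear units), which protects the maternal genome from demethylation and is also transcribed by the embryo. The next was Zp3, a zona pellucida protein, at 16.02 and 16.8, then Npm2, an oocyte histone chaperone, at 13.5 and 13.3. Btg4, an adaptor for the clearance of maternal mRNA, was at 10.3 and 9.88. The oocyte growth factors Gdf9 and Bmp15 stood at 7.22 and 6.02 and at 3.88 and 4.76. Zar1 was at 4.88 and 5.83. Of the subcortical maternal complex, Khdc3 was at 11.9 and 11.8, Nlrp5 at 3.61 and 4.02, Tle6 at 1.26 and 1.19, and Ooep at 0.954 and 0.231. Mos, the kinase that holds the egg in metaphase, was at 0.208 and 0.138, and Oog1 was listed at 0. Polar bodies had been removed per the labels' protocols.

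Transcripts of the 2-cell stage, the peak of zygotic genome activation in the mouse, were detected in a share near that of all genes. Of 26 measured genes 11 were detected (42.3%, against 38.8% of all genes) and 1 was abundant, with a median of 0.79 log2 units. Obox6, a homeobox gene, was the abundant one at 297 and 277 linear units. Sp110 (45.5 and 40.2), Tdpoz2 (42.7 and 35.2) and Eif1ad (27.3 and 25.8) followed. The measured members of the Zscan4 cluster were not detected: Zscan4d, the highest of them, stood at 0.220 and 0.204. Zfp352 stood at 0.255 and 0.484. Several of these families consist of near-identical copies, so values of single members are uncertain.

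The list of polarity, junction and actin genes and the list of Hippo pathway genes were detected in full, against 38.8% of all genes. All 36 polarity, junction and actin genes were detected and 3 were abundant, with a median of 5.03 log2 units. The abundant ones were Myh9, non-muscle myosin IIA, at 231 and 252 linear units, Tjp1, the tight junction scaffold ZO-1, at 144.4 and 144.3, and Arpc2, a subunit of the Arp2/3 actin nucleator, at 119 and 119. Cdh1, the E-cadherin that carries compaction, stood at 78.1 and 76.1. The apical polarity genes Pard6b (5.57 and 4.68) and Prkcz (4.34 and 3.55) and the apical linker Ezr (3.02 and 1.72) were low. All 20 Hippo pathway genes were detected. The coactivator Yap1 stood at 151 and 144 and its kinase Lats1 at 92.4 and 116. Of the TEAD factors that Yap1 binds, Tead4 was at the level given above, Tead1 at 28.9 and 29.0, Tead2 at 1.32 and 1.63 and Tead3 at 1.20 and 2.91. The targets Cyr61 and Ctgf stood at 11.8 and 10.8 and at 6.51 and 4.98.

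Of 15 transport genes known for filling the blastocyst cavity later, 7 were detected (46.7%, against 38.8% of all genes) and 2 were abundant (13.3%, against 3.09%). Aqp3, described above, was among the abundant ones, and the water and glycerol channel Aqp9 stood at 71.5 and 73.4 linear units. Of the beta subunits of the sodium pump, Atp1b3 was at 49.5 and 54.5 and Atp1b1 at 1.71 and 1.08. Aqp5 was listed at 0 and Aqp8 read 0.0262 and 0.

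Of 34 ligand and receptor genes of signalling pathways, 20 were detected (58.8%, against 38.8% of all genes) and 1 was abundant, with a median of 1.38 log2 units. Igf2r, the imprinted receptor that clears IGF2, stood at 750 and 755 linear units. The WNT coreceptor Lrp6 stood at 58.1 and 60.5, and Tdgf1, the NODAL coreceptor Cripto, at 60.7 and 52.2. The FGF receptors Fgfr1 (12.6 and 12.9) and Fgfr2 (14.2 and 13.4) were close to each other. Among ligands, Nodal read 0 and 0.233, Bmp4 read 0 and 0.0483, Igf2 read 0.127 and 0.221, and Wnt3 and Lefty1 were listed at 0.

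Of 37 cell cycle genes 33 were detected (89.2%, against 38.8% of all genes) and 8 abundant (21.6%, against 3.09%). Among the abundant ones were the mitotic cyclin gene Ccnb1 (281 and 282 linear units), Ccna2 (176 and 170) and the kinetochore motor Cenpe (174 and 172). Among the D-type cyclins, which respond to growth factors, Ccnd3 stood at 18.7 and 20.0, Ccnd1 at 7.15 and 5.74 and Ccnd2 at 0.378 and 0.281. Of 25 genes of glycolysis and pyruvate use, 18 were detected (72%, against 38.8%) and 2 abundant (8%, against 3.09%). The abundant ones were Pdha1, of the pyruvate dehydrogenase complex, at 368 and 371, and the hexokinase Hk1 at 240 and 266. The pyruvate and lactate carrier Slc16a1 was at 26.2 and 27.6. The glucose transporter Slc2a3 was at 14.4 and 12.8, and Slc2a1 was not detected, at 0.615 and 0.383. Of the glycolytic enzymes after aldolase, Tpi1, at 0.305 and 0.409, and Gapdh were not detected, while Pgk1, given above, was detected. Of 74 nuclear genes of oxidative phosphorylation 70 were detected (94.6%, against 38.8%) and 4 were abundant (5.41%, against 3.09%). Cox6c (538 and 490) was the highest of them. No gene of the mitochondrial genome was among the genes measured here.

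Of 26 heat shock and stress genes 24 were detected (92.3%, against 38.8% of all genes) and 7 were abundant (26.9%, against 3.09%). Besides the HSP90 and HSP70 genes above, the mitochondrial chaperone Hspa9 stood at 543 and 601 linear units. The heat-inducible Hspa1a and Hspa1b, nearly identical copies whose reads may be split, stood at 0.588 and 0.525 and at 2.80 and 3.27. Of 18 genes of the p53 response and apoptosis, 12 were detected (66.7%, against 38.8%), and the survival gene Mcl1 (167 and 155) was abundant. Trp53 was at 3.48 and 2.97, and Fas was listed at 0.

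Histone genes, many of whose mRNAs carry no poly(A) tail, were well represented in these randomly primed libraries. Of 68 replication-dependent histone genes 63 were detected (92.6%, against 38.8% of all genes) and 18 were abundant (26.5%, against 3.09%). Together the 68 genes held 1.61% and 1.60% of the summed signal. Hist1h4d (552 and 545 linear units), an H4 gene, and Hist1h1c (433 and 421), a linker histone gene, were the highest. Summed by type, the 6 H1 genes gave 1694 and 1650.5 linear units, the 18 H2A genes 1421 and 1374, the 18 H2B genes 1201 and 1306, the 12 H3 genes 692 and 701 and the 13 H4 genes 1255 and 1219. Hist1h2bq and Hist3h2ba were listed at 0. Of the replacement histones, H3f3b (370 and 363) and H3f3a (188 and 186), which encode the same H3.3 protein, and H2afz (115 and 116) were abundant. The oocyte linker histone H1foo was at 4.39 and 5.41. Histone genes share coding sequence closely, so the split between copies is uncertain.

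Among chromatin genes the list reached from abundant cohesin and remodeller genes down to Dnmt3l, which was under the cut. Of 30 such genes 29 were detected (96.7%, against 38.8% of all genes) and 7 abundant (23.3%, against 3.09%). The cohesin subunit Rad21 stood at 499 and 530 linear units and the remodeller Smarca4 at 240 and 244. The methylcytosine dioxygenase Tet3 was at 63.4 and 74.2, above Tet1 (25.02 and 30.3) and Tet2 (19.1 and 19.8). Dnmt1, the maintenance methyltransferase, stood at 14.4 and 15.9, Dnmt3a at 11.9 and 13.2 and Dnmt3b at 9.86 and 10.2. Uhrf1, which brings DNMT1 to replicated DNA, was at 3.85 and 2.79, and Dnmt3l was not detected (0.767 and 0.888).

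Of 39 imprinted genes 18 were detected (46.2%, against 38.8% of all genes) and 2 abundant, Igf2r and Xist. The median was 1.16 log2 units, against 0.44 for all genes. At 5 linear units 9 of the 39 passed in both libraries, a share near that of all genes (5950 of 24421). Xist (X chromosome, 103460366 to 103483254), the RNA that coats and silences an X chromosome, stood at 224 and 252 linear units, and its antisense Tsix at 0.209 and 0.121. Whether the counting used strand is not given in the sources used here, so reads of this overlapping pair cannot be told apart with certainty. Kcnq1ot1, a silencing RNA of another imprinted cluster, was at 24.99 and 28.2, and Gnas at 42.0 and 46.5. H19 (0.0826 and 0.119) and Meg3 (0.129 and 0.126) were not detected. Zim1, Slc22a18 and Nap1l5 were listed at 0.

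Noncoding genes were few among the detected ones. Of 1777 genes of long noncoding types in the annotation, 170 were detected (9.57%), against 8721 of 19875 protein-coding genes (43.9%). Of 29 measured long noncoding RNAs chosen by name, 19 were detected (65.5%, against 38.8% of all genes) and 2 abundant, Malat1 and Xist. The snoRNA host genes Snhg5 (52.8 and 46.9 linear units) and Gas5 (42.7 and 42.3) followed, and Neat1, the scaffold of paraspeckles, was at 11.3 and 11.9. Of 12 measured structural RNA genes 7 were detected (58.3%, against 38.8% of all genes). The RNase P RNA Rpph1 (166 and 155) and the RNase MRP RNA Rmrp (150.2 and 159.7) were abundant beside Rn45s. Terc, the telomerase RNA, was at 2.50 and 1.69. Of 119 small nucleolar and Cajal body RNA genes 85 were detected (71.4%, against 38.8% of all genes), led by Snord17 (515 and 456), Scarna6 (480 and 469) and Scarna13 (308 and 292). Only 71.8% of those 85 agreed within 1.5-fold, against 97.8% of all detected genes. Most of these genes lie inside introns of other genes, so their values can include host reads.

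Of 1180 microRNA genes, taken by symbol, 78 were detected (6.61%, against 38.8% of all genes). Listed at 0 in both libraries were 573 (48.6%, against 20.1%). Of the 1179 genes annotated as microRNAs, 72 were detected (6.11%) and 0 were abundant. The only member of the list by symbol above 100 linear units in both libraries, at 254 and 208, was a host gene, Mir17hg (chromosome 14, 115042879 to 115046727). It hosts the miR-17-92 cluster. This cluster is known for promoting proliferation and survival. The labels' protocols describe no small RNA library, so the values are not levels of mature microRNAs. The 6 hairpins inside the host model were listed separately and far lower: Mir17 at 0.221 and 0.717, Mir18 at 1.28 and 1.496, Mir19a at 2.38 and 2.22, Mir20a at 2.96 and 1.44, Mir19b-1 at 3.36 and 2.30 and Mir92-1 under 0.0011 in both. For each hairpin 1 mature arm is shown and any other arm is left out, from RefSeq on GRCm38.p6, with the seed (bases 2 to 8) in capitals. Among the arms shown, these share a seed: miR-17-5p with miR-20a-5p, and miR-19a-3p with miR-19b-3p.
miR-17-5p: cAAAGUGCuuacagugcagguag
miR-20a-5p: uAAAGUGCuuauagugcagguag
miR-18a-5p: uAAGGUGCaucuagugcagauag
miR-19a-3p: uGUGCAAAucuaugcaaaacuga
miR-19b-3p: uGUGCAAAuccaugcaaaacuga
miR-92a-3p: uAUUGCACuugucccggccug

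Markers of other tissues were described beside the label. Of 39 Hox genes 1 was detected (2.56%, against 38.8% of all genes), Hoxb9 at 2.02 and 2.75 linear units. Listed at 0 were 12 of them (30.8%, against 20.1% of all genes). Of 11 genes of liver and pancreas 8 were listed at 0 (72.7%, against 20.1%), among them Alb, Ins1 and Ins2, and Tat (6.67 and 5.64) was detected. Of 12 neuron and glia genes 1 was detected (8.33%, against 38.8%), Pax6 at 4.88 and 4.99. Of 11 blood genes 3 were detected (27.3%, against 38.8%), Gata1 (12.5 and 12.5), Spi1 (4.91 and 5.37) and Cd68 (2.17 and 2.01). Ptprc read 0.0104 and 0 and Hbb-bs was listed at 0. Of 11 muscle and heart genes 1 was detected (9.09%, against 38.8%), Ttn, which encodes titin. It was abundant, at 132 and 139, while Myod1, Tnnt2 and Ckm were each under 0.16 in both libraries. Of 10 spermatid genes 1 was detected (10%, against 38.8%). It was Odf2, which also encodes a centrosomal protein, at 10.995 and 14.5, and Prm1 and Tnp1 were listed at 0.

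Genes of the cells that surround the oocyte were described in the same way. Of 14 cumulus and granulosa genes, Gja1, Amhr2 and Star were detected (21.4%, against 38.8% of all genes). Gja1, the gap junction protein connexin 43, stood at 447 and 424 linear units and is also a known gene of the compacting embryo. Amhr2 stood at 1.80 and 1.59 and Star at 1.102 and 1.01. Fshr, Inha, Has2 and Ptx3 were listed at 0 in both libraries, and Foxl2 read 0 and 0.00981. Of 16 genes of the post-implantation germ layers, 5 were detected (31.25%, against 38.8% of all genes) and 2 were listed at 0 (12.5%, against 20.1%). The detected ones were Hand1 and Gata4 as above, Gsc (3.77 and 3.69), Mixl1 (2.42 and 1.91) and Tbx6 (2.27 and 1.94). Mesp1 and the mesoderm gene Brachyury (symbol T) were listed at 0. Of the embryo's own genes, Pou5f1, Nr5a2 and Cdh1 were detected and Sox2 was not. Most members of each tissue list were not detected, though Ttn, Gja1 and Hand1 were abundant. The lists were chosen with earlier results of these data known, so these counts describe the libraries and are no test of the label.

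Promoters of detected genes held more CpG than those of genes listed at 0. A promoter was in the table for 82.0% of abundant protein-coding genes, 81.6% of the other detected ones and 80.9% of those listed at 0. In 250 bases before the RefSeq start on GRCm38.p6, the median number of CpG dinucleotides was 19 for 600 abundant protein-coding genes and 17 for 6522 other detected ones. It was 2 for 2633 protein-coding genes listed at 0 in both libraries. That class was not split by family, and 681 olfactory and 222 vomeronasal receptor genes were listed at 0 in both libraries. The median GC content was 61%, 60% and 43.6% in the same order. The letters GGGCGG, on either strand, stood in 61.5%, 59.0% and 13.4% of the promoters of these classes and in 32.7% of all 32851 promoters in the table. The letters TATAAA, on either strand in the last 50 bases, stood in 3.39%, 1.40% and 9.68%, and in 3.50% of all promoters. CCAAT stood on either strand in 37.0%, 35.7% and 37.7%, and in 33.8% of all promoters. The promoters in the table are not limited to the protein-coding genes measured here. Over the 19416 promoters of those genes the shares were 44.5% for GGGCGG, 3.89% for TATAAA and 35.3% for CCAAT. Among the replication-dependent histone genes, of which 61 of 67 had a promoter in the table, CCAAT stood in 82.3% and TATAAA in 29.0% of their 62 promoters, with a median of 9 CpG. Promoters of the maternal list had a median of 3.25 CpG. Such matches are a description of letters, and no binding was measured.

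**Figure D5:**
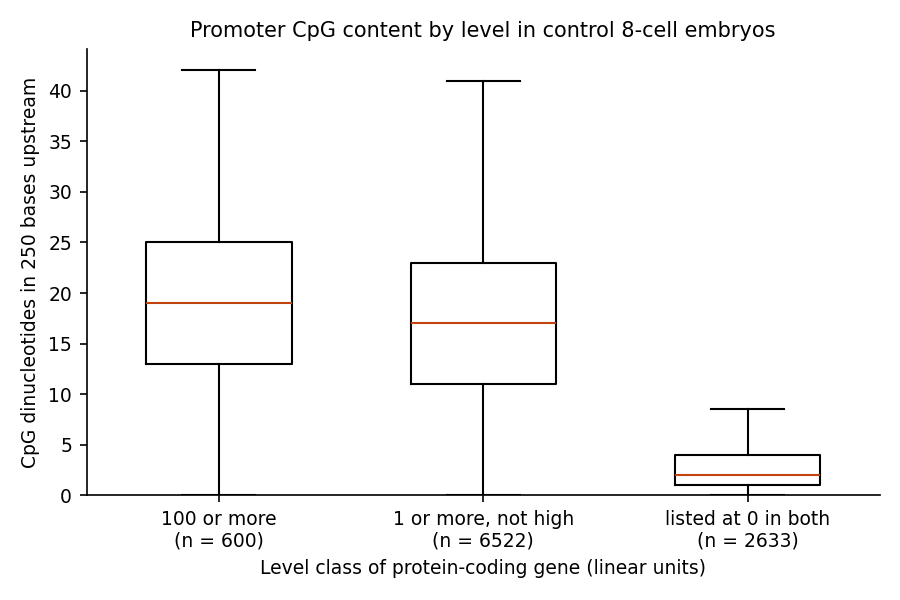
Number of CpG dinucleotides in 250 bases before the start (vertical) for protein-coding genes by level class, as medians (line), quartiles (box) and the farthest values within 1.5 times the interquartile range (whiskers). The boxes of the 2 detected classes, with medians of 19 and 17, lie above that of genes listed at 0, with a median of 2.

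Examples are shown as the 120 bases before the start, 5′ to 3′ on the gene's strand, with matches to CCAAT (or ATTGG, its other strand), TATAAA and GGGCGG in capitals. Rplp0 lies on the plus strand at chr5:115559347-115559466 and has a CCAAT pair and 19 CpG in its 250 bases. Hist1h4d lies on the plus strand at chr13:23581448-23581567 and holds all of the motifs, but only 6 CpG in its 250 bases. Gja1, abundant and not shown, also had 6 CpG there and none of the motifs in its 120 bases. Igf2r lies on the minus strand at chr17:12769707-12769826 and has GGGCGG matches and 27 CpG in its 250 bases. Alb, listed at 0, lies on the plus strand at chr5:90460750-90460869 and has 2 CpG in its 250 bases, though it too has CCAAT matches.
Rplp0: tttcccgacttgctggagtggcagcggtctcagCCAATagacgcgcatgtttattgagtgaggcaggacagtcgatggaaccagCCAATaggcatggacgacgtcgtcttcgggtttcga
Hist1h4d: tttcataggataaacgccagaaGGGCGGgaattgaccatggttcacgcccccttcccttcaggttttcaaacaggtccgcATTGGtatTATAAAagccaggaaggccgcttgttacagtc
Igf2r: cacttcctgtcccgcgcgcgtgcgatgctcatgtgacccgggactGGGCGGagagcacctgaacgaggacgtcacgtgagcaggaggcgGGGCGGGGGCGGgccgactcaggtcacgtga
Alb: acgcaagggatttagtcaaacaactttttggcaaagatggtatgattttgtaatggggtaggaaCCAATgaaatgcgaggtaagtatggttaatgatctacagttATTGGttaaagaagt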

How the data were processed

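The authors deposited log2 values, 1 per gene and library, as log2(value + 1), per the table's name and its exact zeros. The kind of abundance is not given in the sources used here. The submitters' processing notes list StringTie 1.3.4, Cufflinks, HISAT2 2.1.0 and SAMtools 1.7, and name mm10 as the build. Libraries were made with a stranded total RNA kit, per the labels' protocols. The 2 control columns were read, and 4 columns of other groups in the same table and the knockdown tables were not used. Values were turned to linear units as 2 to the power of the deposited value, minus 1, with pandas 2.3.3 and scipy 1.17.1 in Python 3.11.15. No test was made, as 1 group has no contrast. P-values are therefore not given, and the spread between the 2 libraries may be technical.

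Genes were counted at cuts of 1 and 100 linear units in both libraries and at exact 0. Gene positions, types and lengths are from GENCODE M21, where 23334 symbols had 1 gene model. Promoters were matched through RefSeq symbols and synonyms, and a class was used only where at least 80% of its genes had one. Low genes not at 0 and ribosomal protein genes fell short. Protein-coding genes as a whole, at 79.97%, are given only as a base. The scripts were tested on simulated data. Genes named are the 25 highest by mean linear value, the 15 highest outside structural, small nucleolar, microRNA and ribosomal protein genes, and the 5 largest differences between the libraries each way among genes with a mean of at least 10. Members of 36 gene lists were also nameable: any member of lists of up to 50, otherwise the 6 highest and those at 0. Rpl34, Eef1a2, Snrpn as the partner of Snurf, and members of long lists under the 6 highest that are not at 0 were named after their values were seen. So were the promoter examples, the families, the Y-linked genes and Gm15772. The genes and lists were chosen with earlier results of these data known. Alternatives were other cuts, added constants, scaling and leaving out a library. Some of the genes this rule covers are not reported here.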

Additional observations from a re-analysis of the deposited data

How the results depend on the processing

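No paired analysis was possible because the description rests on 1 group and no test. The cut set the counts: at 5 linear units 5950 genes passed in both libraries and at 50 units 1482 did. Genes at 0 in either library numbered 8136, and genes at up to 0.1 units in both 8017. The median log2 level was 4.43 with a filter at 5 units, 0.44 with no filter, 3.19 with an added constant of 0.1, and 3.21 to 3.22 when 1 library was left out. The share of the 100 highest genes was 24.1% without structural, small nucleolar and microRNA genes, and 23.8% without Rn45s, an alternative chosen after seeing the data. Pearson's r was 0.995 with no filter, 0.994 with a filter at 5 units and 0.991 with a constant of 0.1. The share of genes within 1.5-fold was 99.1% with a filter at 5 units, 97.1% with no filter, 97.8% with libraries scaled to the same sum and 95.2% with a constant of 0.1. With the mean, either library, equal sums or a cut at 0.5 units, the counts at 1 unit stayed between 9486 and 10938. Of 35 lists, 23 kept their count of detected members within 1.5 times at a cut of 5 units. The other 12 fell below it, among them the maternal, 2-cell, primitive endoderm, imprinted and signalling lists. The count over all genes, from 9486 to 5950, fell beyond 1.5 times as well. Leaving out replicate 1 moved no list beyond 1.5 times, and leaving out replicate 2 moved the microRNA and the muscle and heart lists. Depth is unknown, so it is not known which genes under 1 unit could have been measured.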

Other observations

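Gene families defined by the start of their symbol, after values were seen, differed as widely as the lists. Of 1107 olfactory receptor genes 2 were detected (0.181%, against 38.8% of all genes), Olfr836 (2.26 and 1.41 linear units) and Olfr376 (1.02 and 1.54). Of 330 vomeronasal receptor genes 1 was detected (0.303%, against 38.8%), Vmn1r32 (4.13 and 1.74). Of 93 cytochrome P450 genes 3 were detected (3.23%, against 38.8%), and Cyp2s1 (134 and 120.2) was abundant. Of 337 zinc finger genes named Zfp, 191 were detected (56.7%, against 38.8%) and 7 were abundant (2.08%, against 3.09%). The highest was Zfp568 (691 and 682), a KRAB zinc finger gene that represses a placental Igf2 transcript. Among the Sox factors the highest was Sox15 (124 and 148), followed by Sox13 (72.0 and 77.7) and Sox12 (38.6 and 38.3). Among the GATA factors Gata6, Gata4, Gata1 and Gata3 were detected, while Gata2 and Gata5 were not. Foxa1, a liver and gut factor in later life, stood at 59.8 and 63.3 while Foxa2 stood at 0.0369 and 0. Of 48 keratin genes 4 were detected (8.33%, against 38.8%), Krt8, Krt18, Krt28 (2.18 and 2.11) and Krt84 (1.45 and 1.46).

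The sex chromosomes were both represented. Of 805 X-linked protein-coding genes 271 were detected (33.7%), against 8447 of 19031 autosomal ones (44.4%). The median detected gene stood at 3.00 log2 units on the X chromosome and 3.40 on the autosomes. Of 39 Y-linked protein-coding genes 3 were detected, Ddx3y (20.4 and 14.2 linear units), Eif2s3y (8.79 and 6.29) and Uba1y (3.10 and 2.29), and 30 were listed at 0. All 3 were higher in replicate 1. Gene structure also differed by level: the median exonic length was 5118 bases for abundant protein-coding genes, 4601 for other detected ones, 3468 for those below the cut and 2031 for those listed at 0. Genes with a single exon made up 3.01%, 1.76%, 5.46% and 10.2% of these classes. Olfactory and vomeronasal receptor genes were not set apart in these figures. Pseudogene types had 68 of 347 genes detected (19.6%), led by Gm15772 (382 and 377).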
